A study of Mus musculus with 22 samples.

Results

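The voltage-gated sodium and calcium channel genes are the genes whose products form these channels: the pore-forming alpha subunits (Scn and Cacna1 genes) and the auxiliary subunits (sodium channel beta, alpha2delta, calcium channel beta, and gamma subunits). They were chosen by gene symbol alone, and 38 of the 20565 genes in the count tables carry such a symbol. They comprise 9 sodium channel alpha, 4 sodium channel beta, 10 calcium channel alpha1, 4 alpha2delta, 4 calcium channel beta and 7 gamma genes. Scn4a and Cacng1 were not analysed here. Bulk RNA sequencing gave 22 libraries in 4 groups. Among males 5 libraries were WT and 6 cKO, and among females 5 were WT and 6 cKO. Every animal carried floxed Smc3 and had received tamoxifen by oral gavage 6 weeks earlier, and the age is given as 8 weeks. Animals named cKO carried Camk2a-cre/ERT2, a tamoxifen-dependent recombinase under a promoter active in forebrain excitatory neurons, and animals named WT lacked it, so an effect of the recombinase itself cannot be told apart from that of the floxed gene. SMC3 is a subunit of cohesin, the ring that holds and folds chromatin, and the title of the series concerns its sex-specific part in anxiety-like behaviour.

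Voltage-gated sodium channels open on depolarization and produce the rising phase of the action potential. Their alpha subunit forms the whole pore, and the beta subunits, which are also cell adhesion molecules, tune gating and surface density. Voltage-gated calcium channels turn depolarization into calcium entry. P/Q-, N- and R-type channels trigger transmitter release, L-type channels couple activity to transcription, and T-type channels open near rest and drive burst firing. The calcium channel beta and alpha2delta subunits bring the pore to the membrane, and most gamma genes of the brain encode TARPs, which bind AMPA-type glutamate receptors.

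In the libraries labelled cKO, few of these genes differed from WT, and the great majority did not pass the test. Each gene called differed by less than 1.5-fold. In females 2 of 34 members were called (5.88%), beside 3.37% of all genes, and in males 0 of 35. Scn3b, a sodium channel beta subunit, fell 1.29-fold in females, and its log2 fold change was -0.36 in each sex. Its female call held in 9 of 11 fits with a female library left out. That call was lost with an oligodendrocyte marker covariate and when females were compared in a fit of all 4 groups. Cacnb2, a calcium channel beta subunit, rose 1.23-fold in females, but this call held in only 1 of 11 fits with a female library left out. In a fit that averaged both sexes, added after the data had been seen, Scn3b, the T-type channel gene Cacna1h and the axonal sodium channel gene Scn8a fell. These 3 were 8.33% of the members tested there, beside 7.13% called over all genes. No member was called for a difference between the sexes.

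Several facts of the libraries bear on every value below. Totals were 12771354 to 15028342 counts in males and 13832715 to 16896239 in females. The targeted gene Smc3 was higher in libraries labelled cKO, at 142 ± 15.7 CPM against 81.9 ± 9.92 CPM in males (SD, n = 6 and n = 5) and at 130 ± 9.68 against 74.0 ± 5.91 CPM in females. CPM is the count of a gene relative to the scaled library total. These differences passed the test, with a log2 fold change of 0.79 in males (edgeR adjusted p = 0.00541) and 0.81 in females (edgeR adjusted p = 9.17e-05). A gene total does not show whether the floxed part is missing, so cKO and WT are used here as the labels' names. The tissue field names the prefrontal cortex and the titles name the hypothalamus. All 10 cortex markers averaged at least 10 CPM, none of the 9 hypothalamus markers in the tables (of 12 listed) did so, and 6 of them stayed under 1 CPM. In females the summed cortex markers ran from 963 to 1824 CPM (median 1269.7) in WT and from 701 to 1131 CPM (median 869) in libraries labelled cKO, and 2 of 10 cortex, 2 of 9 inhibitory neuron and 1 of 8 excitatory neuron markers fell, with none rising. In males the cortex sums ran from 697 to 1579 CPM (median 1189) and from 840.5 to 1177 CPM (median 992), and none of these markers passed. The part of these markers in the channel gene differences was not tested. Striatal markers were present too, at 202 to 910 CPM summed over 12 genes. Genes typical of the olfactory bulb, a list chosen after its values had been seen, summed to 250 CPM in male WT 3, 470 in male WT 6, 826 in male cKO 8 and 170 in male cKO 9, to 84.2 in male cKO 14, and to 15.5 to 49.3 CPM in the other libraries. Choroid plexus markers summed to 599.9 CPM in female cKO 21 and to at most 38.3 CPM elsewhere. In bulk tissue, fewer cells of a type and less RNA per cell cannot be told apart. The strand setting of the counting is not given in the sources used here, so reads of antisense or overlapping genes may be included.

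Start regions are shown for the genes the results turn on, where RefSeq holds them. Of the 38 members, 29 had a window from 250 bases before to 50 bases after a transcript start (40 windows, RefSeq, build GRCm38.p6). Cacnb2 and Scn8a are printed, and Scn3b and Cacna1h are named only. The windows lie at chr2:14604056-14604355 and chr2:14823842-14824141 for Cacnb2 and at chr15:100870395-100870694 and chr15:100936021-100936320 for Scn8a, all on the plus strand. The GC box (GGGCGG), a core of the CTCF motif (GGNGGCAG), the cyclic AMP response element (TGACGTCA) with its overlapping shorter form (TGACG), the TATA box (TATAAA) and the CAAT box (CCAAT) were searched on both strands and are in capitals where found.
Cacnb2, upstream window: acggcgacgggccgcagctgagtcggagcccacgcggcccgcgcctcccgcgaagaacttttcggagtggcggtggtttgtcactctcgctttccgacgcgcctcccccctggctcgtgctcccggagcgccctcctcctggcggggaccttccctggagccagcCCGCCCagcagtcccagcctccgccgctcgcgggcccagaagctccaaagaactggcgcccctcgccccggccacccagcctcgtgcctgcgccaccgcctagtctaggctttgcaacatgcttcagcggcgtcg
Cacnb2, downstream window: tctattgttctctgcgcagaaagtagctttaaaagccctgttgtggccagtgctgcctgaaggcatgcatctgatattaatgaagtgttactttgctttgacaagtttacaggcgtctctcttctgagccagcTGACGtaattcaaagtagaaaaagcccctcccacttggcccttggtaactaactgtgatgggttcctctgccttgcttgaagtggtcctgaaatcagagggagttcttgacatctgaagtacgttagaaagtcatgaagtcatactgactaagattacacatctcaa
Scn8a, upstream window: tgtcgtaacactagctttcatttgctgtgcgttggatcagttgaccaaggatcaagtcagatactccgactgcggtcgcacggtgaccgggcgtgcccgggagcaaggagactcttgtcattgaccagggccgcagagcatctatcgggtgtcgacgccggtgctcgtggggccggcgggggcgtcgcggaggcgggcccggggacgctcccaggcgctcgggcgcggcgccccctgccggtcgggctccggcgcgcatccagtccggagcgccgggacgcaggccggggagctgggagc
Scn8a, downstream window: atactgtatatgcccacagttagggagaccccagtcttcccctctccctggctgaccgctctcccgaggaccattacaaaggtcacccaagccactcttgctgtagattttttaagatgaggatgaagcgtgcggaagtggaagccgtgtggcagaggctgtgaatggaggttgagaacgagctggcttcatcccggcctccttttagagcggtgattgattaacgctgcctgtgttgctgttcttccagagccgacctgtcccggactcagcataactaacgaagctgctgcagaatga

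In both genes the upstream window was rich in G and C, and the downstream window less so. The upstream window of Cacnb2 had 71.7% GC and 35 CpG pairs, and the downstream window 44% and 4 pairs. The upstream window of Scn8a had 70% GC and 38 CpG pairs, and the downstream window 53.3% and 12 pairs. A GC box lay at bases 166 to 171 of the upstream Cacnb2 window, on the minus strand, and TGACG at bases 134 to 138 of the downstream one. Neither Scn8a window held any of the searched letters. Of 32851 windows of this length, 35.7% held the GC box, 12.6% the CTCF core, 1.79% the full and 20.8% the shorter cyclic AMP response element, 13.6% the TATA box and 37.4% the CAAT box. The counts per gene do not show which start was used.

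**Figure D1:**
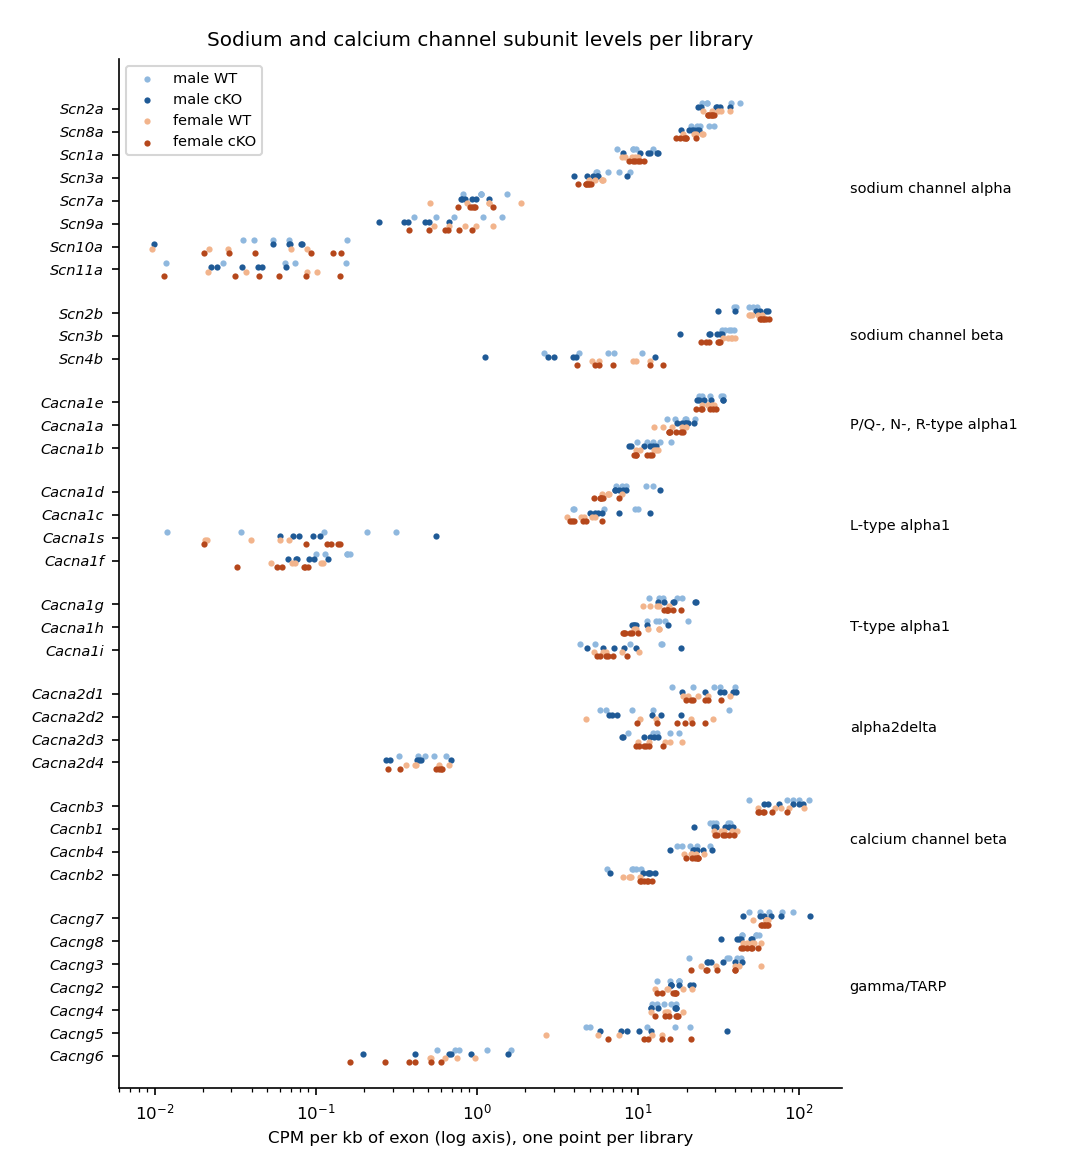
Level of 36 channel genes in CPM per kb of exon on a log axis, ordered by level within each subunit family; each point is 1 library, coloured by sex and group, and zeros are not drawn. Mean levels range from above 50 for Cacng7 and Scn2b to under 1 for Scn11a, and Scn4b, Cacna2d2 and Cacng5 spread over 7.68-fold or more while Cacna1e stays within 1.47-fold.

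The level of the members, set on exon length, ran over a wide range. Of the 38 genes, 24 averaged at least 10 CPM per kb, 7 lay between 1 and 10, and 7 stayed under 1. Cacnb3 stood at 78.1 ± 19.6 CPM per kb (SD, n = 22), Cacng7 at 65.1 ± 15.1 and Scn2b at 53.2 ± 8.94. Most neighbours in the order did not differ beyond their spread, since in 31 of 37 neighbouring pairs the gap was smaller than the larger SD. At the low end, Scn11a (0.0543 CPM per kb), Scn10a (0.0635), Cacna1f (0.093) and Cacna1s (0.113), known from sensory ganglia, retina and skeletal muscle, were near absence. Scn10a and Scn11a did not pass the filter on low counts in either sex, Cacna1s passed in neither sex alone, and Cacna1f passed in males only, which leaves 35 members tested in males and 34 in females.

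Within families 1 or 2 subunits led. Scn2a, the sodium channel of excitatory neurons and of the early axon, held 41.7 ± 2.62% of the summed sodium channel alpha level per kb (SD, n = 22), and Scn8a, the main channel of the mature axon initial segment and nodes, held 30.8 ± 2.41%. Scn1a, prominent in inhibitory interneurons, held 13.9 ± 1.98%, and Scn3a, highest before birth, 7.89 ± 1.46%. Scn2b held 21.9 ± 3.89% of the sodium channel beta level and Scn3b 13.6 ± 3.54%. Cacna1e, the R-type pore, held 48.5 ± 2.43% of its family beside 31.5 ± 2.83% for Cacna1a (P/Q-type) and 20.02 ± 1.37% for Cacna1b (N-type). Cacna1d held 57.2 ± 3.51% of the L-type level and Cacna1c 41.4 ± 3.48%. Among T-type genes Cacna1g averaged 45.1 ± 6.86% over all libraries. In WT it stood near Cacna1h, at 39.5% against 37.3% in males and 40.9% against 36.5% in females. In libraries labelled cKO the shares were 47.7% against 28.8% in males and 50.7% against 28.1% in females. Cacna2d1, a gabapentin target, held 50.1 ± 11.98% of the alpha2delta level, Cacnb3 53.6 ± 6.05% of the calcium channel beta level, and Cacng7 33.5 ± 4.28% of the gamma level. The shares of the release channels and sodium channel alpha genes varied little between libraries, while those of Cacna2d1 and Cacna2d2 varied more.

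Scn3b (ENSMUSG00000049281), whose product associates with the alpha subunit without a covalent bond, was the member with the smallest p in females. Its level in female WT was 170, 164, 151, 173 and 180 CPM, and in the 6 libraries labelled cKO it ran from 111 to 145 CPM with a median of 133. The female groups did not overlap. In male WT it was 170, 166, 178, 150 and 156 CPM, and the libraries labelled cKO ran from 82.3 to 150 CPM with a median of 134. The male groups did not overlap either, though the highest male cKO library lay just under the lowest WT. Scn3b fell 1.29-fold in females (log2 fold change -0.36, SE 0.08, 95% interval -0.53 to -0.19, edgeR adjusted p = 0.0243), lower than the WT median in 6 of 6 libraries. In males the log2 fold change was -0.36 (SE 0.13, 95% interval -0.65 to -0.07, edgeR adjusted p = 0.358), which did not pass, with 6 of 6 libraries under the WT median. In the authors' deposited table the adjusted p was 0.00166 in females and 0.313 in males. Leaving out female cKO 22 or female cKO 27 ended the call in females, at an edgeR adjusted p of 0.0509 and 0.0562, and the fit of all 4 groups gave 0.108 with a log2 fold change of -0.37. With the oligodendrocyte marker score as a covariate the call was lost too (-0.35, edgeR adjusted p = 0.0503).

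Neither Scn2b nor Scn4b passed. Scn2b, a covalently bound partner of the alpha subunit, differed by 0.19 on the log2 scale in females (SE 0.06, edgeR adjusted p = 0.139), with 6 of 6 libraries labelled cKO above the WT median of 238 CPM, and by 0.13 in males. Scn4b, which promotes resurgent current and is abundant in striatal neurons, spread from 5.61 to 63.7 CPM among male libraries labelled cKO alone, so its interval in males ran from -1.55 to 0.70.

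**Figure D2:**
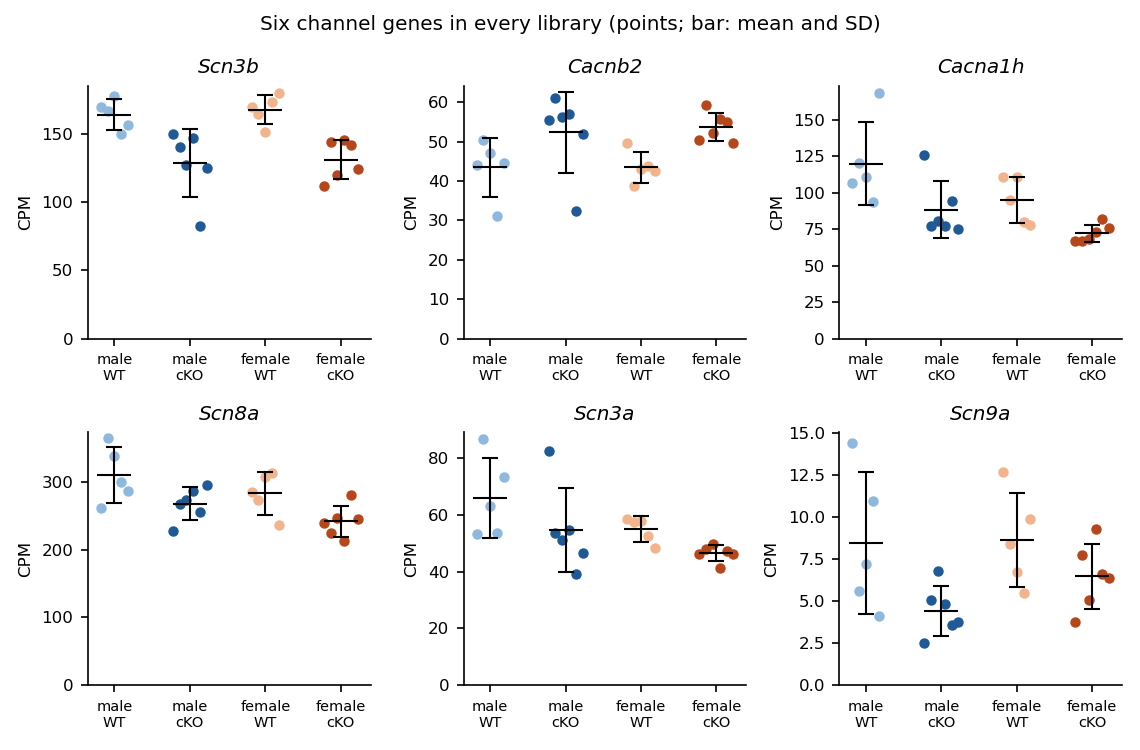
CPM of 6 channel genes in each of the 22 libraries (points), with the mean and SD of each group as bars, axes starting at 0. WT and cKO do not overlap for Scn3b in both sexes and for Cacnb2 in females, while Cacna1h, Scn8a, Scn3a and Scn9a overlap. The groups nearly meet for Scn3b in males and for Cacnb2 in females.

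No sodium channel alpha gene passed in either sex. Scn8a (ENSMUSG00000023033) was 262, 365, 339, 300 and 287 CPM in male WT and 284, 273, 308, 314 and 236 in female WT, against 227 to 295 (median 271) and 213 to 281 (median 242) in libraries labelled cKO. The groups overlapped, but all 6 cKO libraries of each sex lay under their WT median. Its log2 fold change was -0.22 in males (SE 0.10, edgeR adjusted p = 0.509) and -0.24 in females (SE 0.09, edgeR adjusted p = 0.181). Scn2a, the family's most abundant gene, differed by -0.10 in males and -0.15 in females, with an edgeR adjusted p of 0.948 and 0.428.

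Scn3a (ENSMUSG00000057182) was 58.5, 57.7, 58.0, 52.7 and 48.2 CPM in female WT and 41.2 to 49.6 CPM (median 46.7) in female cKO. These groups overlapped through female WT 26, the lowest WT library. The log2 fold change was -0.25 in females (SE 0.07, edgeR adjusted p = 0.0716) and -0.28 in males (SE 0.18, edgeR adjusted p = 0.739), and the authors' deposited table gives an adjusted p of 0.0358 in females. Scn9a, best known from pain-sensing neurons, had the smallest male p of all members. It was 14.5, 5.59, 7.18, 10.98 and 4.11 CPM in male WT and 2.48 to 6.77 CPM (median 4.29) in male cKO, which is a difference of -0.95 on the log2 scale (SE 0.33, edgeR adjusted p = 0.324). The male WT values themselves spread from 4.11 to 14.5 CPM. Scn1a, which lies in the same gene cluster as Scn2a, Scn3a, Scn7a and Scn9a, had positive values, 0.23 in males and 0.12 in females, where the others were below 0 in both sexes, and none of these passed.

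Of the 10 calcium channel alpha1 genes, 9 were tested in males and 8 in females, and none passed. Cacna1h (ENSMUSG00000024112), a T-type pore, came closest in females. Female WT libraries held 111, 95.1, 111, 80.1 and 77.7 CPM, and those labelled cKO 66.7 to 82.1 CPM with a median of 70.6. Male WT held 107, 121, 111, 93.4 and 168 CPM and male cKO 75.1 to 126 CPM with a median of 78.9. The groups overlapped in each sex, in males through cKO 8 and cKO 13. The log2 fold change was -0.41 in females (SE 0.11, edgeR adjusted p = 0.0552) and -0.45 in males (SE 0.17, edgeR adjusted p = 0.371). The authors' deposited table gives an adjusted p of 0.015 in females. With each female library left out in turn Cacna1h was called in 3 of 11 fits, those without WT 25, WT 26 or cKO 24, and the edgeR adjusted p ran from 0.0184 to 0.138.

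The sister gene Cacna1g pointed the other way, at 0.28 on the log2 scale in females (SE 0.09, edgeR adjusted p = 0.134; 6 of 6 above the WT median) and 0.21 in males (SE 0.17, edgeR adjusted p = 0.825). Cacna1i, the remaining T-type gene, differed by -0.12 in females and -0.06 in males. The presynaptic pores had narrow intervals: Cacna1e differed by -0.06 in females (95% interval -0.23 to 0.11) and -0.04 in males (-0.33 to 0.25), Cacna1a by 0.05 (-0.19 to 0.28) and 0.06 (-0.17 to 0.28), and Cacna1b by -0.15 (-0.36 to 0.07) and -0.22 (-0.52 to 0.08). Except for the lower bound of Cacna1b in males, these intervals stayed within 0.5 of 0. The L-type genes Cacna1d and Cacna1c differed by -0.15 and -0.07 in females. Cacna1f, at 0.410 to 0.985 CPM in males, differed by -0.65 in males (SE 0.24, edgeR adjusted p = 0.359).

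Cacnb2 (ENSMUSG00000057914), which binds the alpha1 pore from inside the cell and is the least abundant calcium channel beta gene here, was 49.6, 38.6, 43.1, 43.9 and 42.5 CPM in female WT and 49.7 to 59.3 CPM (median 53.6) in female cKO. The female groups did not overlap, but the highest WT and the lowest cKO library nearly met. Male WT held 44.1, 50.5, 47.1, 31.0 and 44.6 CPM and male cKO 32.4 to 61.0 CPM (median 55.8), with 5 of 6 libraries above the WT median and cKO 13 far under it. Cacnb2 rose 1.23-fold in females (log2 fold change 0.29, SE 0.07, 95% interval 0.13 to 0.45, edgeR adjusted p = 0.0475), and in males the log2 fold change was 0.26 (SE 0.16, edgeR adjusted p = 0.718). The authors' deposited table gives an adjusted p of 0.00875 in females and 0.821 in males. The call in females lies at the threshold: with each female library left out in turn it held in 1 of 11 fits, that without WT 16, and the edgeR adjusted p ran from 0.0160 to 0.130 while the log2 fold change stayed between 0.25 and 0.34. It was also lost with the oligodendrocyte covariate (0.0901), without a filter on low counts (0.0553) and in the fit of all 4 groups (0.364).

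The other calcium channel beta genes did not pass. Cacnb3, the most abundant, differed by -0.31 in females (SE 0.15, edgeR adjusted p = 0.333) and -0.09 in males, Cacnb4 by 0.01 in females and 0.06 in males, and Cacnb1 by -0.05 and -0.01. Of the alpha2delta genes, which set channel number at the terminal, Cacna2d3 had the smallest p, with -0.33 in females (SE 0.14, edgeR adjusted p = 0.283) and -0.35 in males (SE 0.19, edgeR adjusted p = 0.633). Cacna2d1 differed by -0.05 in females and 0.17 in males. Of the gamma genes, Cacng6, a low-abundance subunit at 0.324 to 3.23 CPM, had the smallest p, at -0.80 in females (SE 0.30, edgeR adjusted p = 0.196). Cacng7, the most abundant, had a female 95% interval of -0.14 to 0.14, and Cacng8, a TARP of the hippocampus and cortex, by -0.06 in females and -0.22 in males. Cacng5 had a wide interval in females, -0.15 to 1.45.

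**Figure D3:**
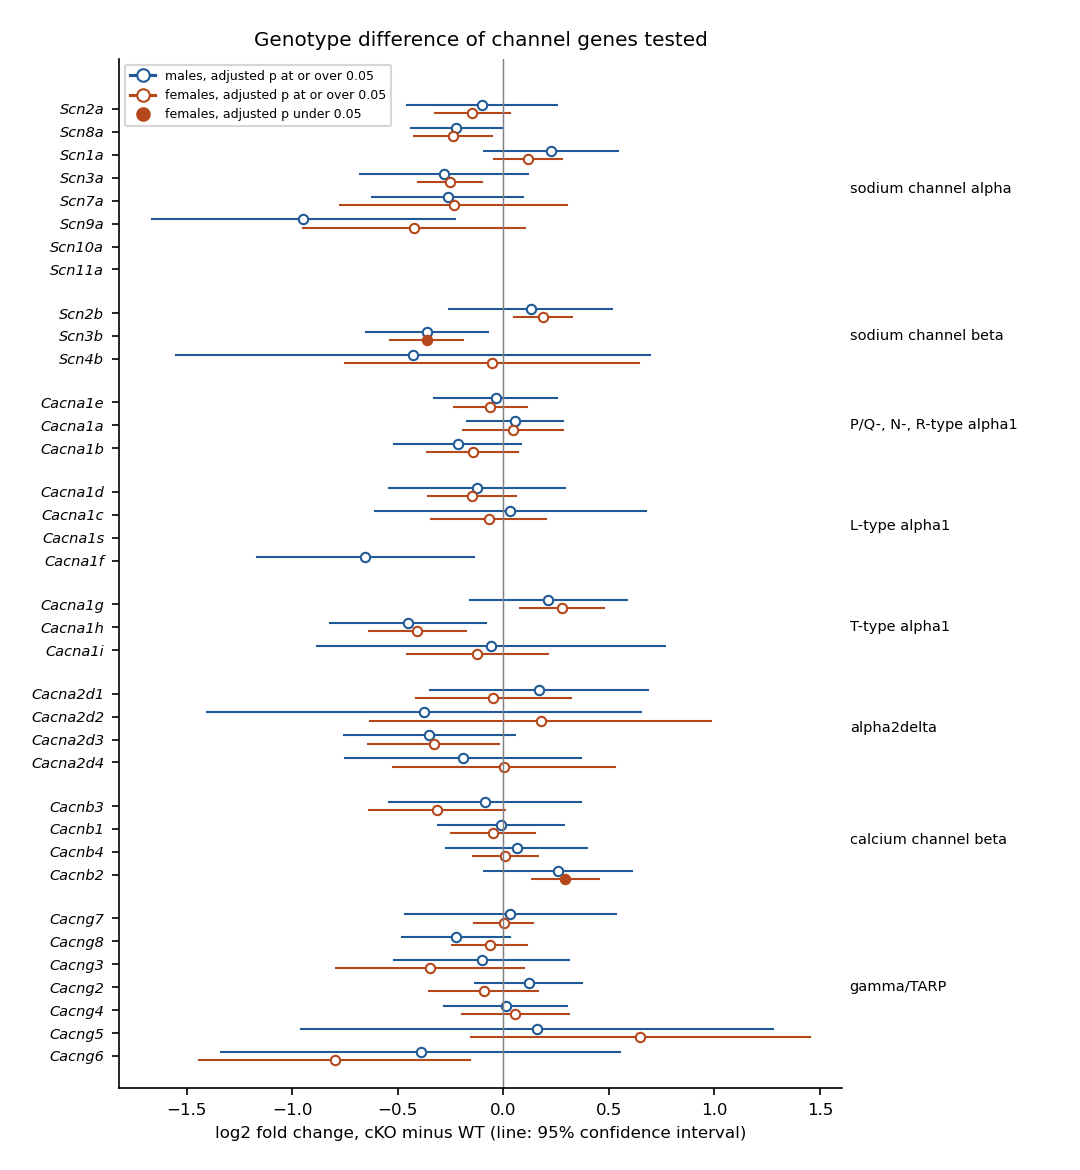
Log2 fold change (cKO minus WT) with its 95% confidence interval for the channel genes tested, in males (blue) and females (orange), by subunit family; filled points have an adjusted p under 0.05. Only Scn3b and Cacnb2 in females are filled, and intervals are wide for Scn4b, Cacna2d2 and Cacng5.

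In males 0 of 35 members passed the edgeR test and 5 (14.3%) had an unadjusted p under 0.05, beside 9.49% of all genes, where 0.584% of all 16098 genes tested were called, 0.503% lower and 0.0808% higher. DESeq2 also called 0 members in males. In females 2 of 34 passed, 1 lower and 1 higher, and 9 (26.5%) had an unadjusted p under 0.05, beside 15.7% of all genes, where 3.37% of 16123 genes were called, 2.75% lower and 0.62% higher. These counts are too small to set the members apart from the background. Groups did not overlap for 1 of 35 members in males (2.15% of all genes) and for 2 of 34 in females (3.55%). The median log2 fold change over the members tested was -0.10 in males and -0.06 in females, beside 0.01 over all genes tested in each sex. The interval lay within 0.5 of 0 for 9 of 35 members in males, beside 8640 of all 16098 genes. In females it did so for 21 of 34 members, beside 10125 of all 16123 genes. The male intervals were the wider. The authors' deposited table has 4 members with an adjusted p under 0.05 in females (Scn3b, Cacnb2, Cacna1h and Scn3a) and 0 in males.

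The sexes were compared by the genotype by sex term. Of 36 members 0 passed, 0 had an unadjusted p under 0.05, and 0% of all 16855 genes were called (176 of them had an unadjusted p under 0.05, and DESeq2 also called 0). The difference for Scn3b had a 95% interval of -0.33 to 0.32 on the log2 scale, that for Cacna1h 0.04 (-0.40 to 0.48), that for Scn8a -0.02 (-0.29 to 0.26) and that for Cacnb2 0.03 (-0.34 to 0.41). These intervals admit sex differences about as large as the genotype differences themselves. Males and females share no animal. The log2 fold changes had the same sign in both sexes for 28 of the 34 members tested in both (82.4%), 18 lower and 10 higher, beside 71.1% of all 15787 genes; this is a count across genes, which are not independent replicates.

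Averaging the genotype effect over both sexes in 1 fit of all 4 groups, a choice made after seeing the data, gave 3 calls among 36 members, all lower. This was 8.33% of the members, where 7.13% of all 16855 genes were called and 4.67% were called lower. Scn3b fell 1.29-fold (log2 fold change -0.37, SE 0.08, 95% interval -0.53 to -0.20, edgeR adjusted p = 0.00501). Cacna1h fell 1.35-fold (-0.43, SE 0.11, 95% interval -0.65 to -0.21, edgeR adjusted p = 0.0134), and Scn8a fell 1.18-fold (-0.23, SE 0.07, 95% interval -0.37 to -0.10, edgeR adjusted p = 0.0301). Scn3b and Cacna1h were called with any of the 22 libraries left out, and Scn8a in 15 of 22 such fits. The Scn8a call was lost without male WT 3, male WT 4, female WT 16, 19 or 25, or female cKO 21 or 23, with an edgeR adjusted p of up to 0.0896, and with no filter on low counts (0.0558). Scn9a (-0.69, edgeR adjusted p = 0.0542) and Cacnb2 (0.27, edgeR adjusted p = 0.0736) lay just outside. Over 29 alternative fits of the average, Scn9a was called in 9 and Cacnb2 in 3. Those for Scn9a included DESeq2 and the oligodendrocyte, striatal and olfactory bulb marker covariates.

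Lists of genes that act with these channels were counted beside the members. In males none of the 58 partner genes tested passed. The female counts stand beside 3.37% called over all genes. In females, among the intracellular FGFs and the NALCN leak channel complex, 1 of 9 passed: Fgf12, an FGF homologous factor that binds the sodium channel tail, fell by 0.28 on the log2 scale (SE 0.07, edgeR adjusted p = 0.0373), from 157 to 204 CPM in WT to 140 to 161 CPM in cKO. Among active zone genes, 2 of 12 passed. Rims2, a scaffold that tethers calcium channels at release sites, fell by 0.29 (SE 0.06, edgeR adjusted p = 0.0269), and Syt1, the calcium sensor of fast release, fell by 0.59 (SE 0.11, edgeR adjusted p = 0.00928).

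Among calcium release and store-operated genes, 1 of 11 passed. Itpr1, the inositol trisphosphate receptor of the endoplasmic reticulum, fell by 0.92 on the log2 scale (SE 0.18, edgeR adjusted p = 0.0154), from 295 to 703 CPM in female WT to 202 to 322 CPM in female cKO. In males its values were 265 to 699 CPM and 161 to 362 CPM (-0.75, edgeR adjusted p = 0.308). None of the 10 genes of the axon initial segment and node passed, and Sptbn4, the spectrin that anchors sodium channels there, had the smallest p, at 0.20 in females (SE 0.08, edgeR adjusted p = 0.235). The male log2 fold changes of these genes were -0.15 for Fgf12, -0.23 for Rims2 and -0.42 for Syt1, beside that of Itpr1, and none passed. The medians over the lists in females ran from -0.13 (active zone) to 0.10 (axon initial segment). With female cKO 21 and WT 25 left out together, Fgf12 (edgeR adjusted p = 0.1255), Rims2 (0.115) and Itpr1 (0.0588) were no longer called, while Syt1 was. With single female libraries left out, Syt1 and Itpr1 were called in 11 of 11 fits, Rims2 in 7 of 11 (lost without WT 19, WT 25, cKO 21 or cKO 27; edgeR adjusted p up to 0.0611) and Fgf12 in 3 of 11 (kept without WT 18, WT 19 or cKO 24; edgeR adjusted p up to 0.0848). Summed oligodendrocyte markers ranged from 1876 to 14876 CPM over the libraries, and with that list as a covariate Fgf12 (edgeR adjusted p = 0.0905) and Rims2 (0.0632) were not called in females.

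Several members varied between libraries along with tissue markers. The mean log2 CPM of the 12 striatal markers split the libraries into 16 with scores of 4.07 to 5.45 and 6 with scores of 2.71 to 3.28. The latter were male WT 3 and 6, male cKO 8, 9 and 14, and female WT 25, that is 2 of 5, 3 of 6, 1 of 5 and, in female cKO, 0 of 6 libraries. These 6 libraries also had the lowest summed oligodendrocyte markers, 1876 to 4329 CPM against 4630 to 14876 CPM in the other 16. The striatal and oligodendrocyte lists therefore cannot be told apart across this split. Scn4b ran from 5.61 to 28.6 CPM in these 6 libraries and from 19.8 to 71.7 in the other 16. Cacna2d2, an alpha2delta gene strong in Purkinje cells and some interneurons, ran from 27.7 to 43.2 CPM against 53.7 to 213, with no overlap. Cacnb3 ran the other way, from 273 to 339 CPM against 145 to 272. Cacna1i, at 80.2 to 180 against 43.0 to 87.7 CPM, and Cacna1c, at 79.2 to 181 against 55.3 to 94.2 CPM, were also higher in the 6 libraries, with little overlap. Scn3b (125 to 173 against 82.3 to 180 CPM) and Cacnb2 (43.9 to 61.0 against 31.0 to 59.3 CPM) overlapped between the sets, with the wider range in the 16.

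Within the 16 libraries, correlations with the striatal score were computed for 35 members on log2 CPM, with permutation p-values adjusted over the 35. These libraries pool all 4 groups. Of the 35 members, 12 had an unadjusted permutation p under 0.05 for Pearson r, and the share over all genes is not given here. Scn4b rose with the score (Pearson r = 0.88, permutation adjusted p = 0.00105; Spearman rho = 0.87, permutation adjusted p = 0.00105), and r was 0.82 without the 2 libraries farthest from the median score. Cacng4, a TARP gene, did so too (r = 0.71, permutation adjusted p = 0.0317; rho = 0.70, permutation adjusted p = 0.0393; r = 0.59 without those 2). Within the 6 libraries no member passed, and 1 had an unadjusted exact permutation p under 0.05. With 6 libraries the smallest possible permutation p was about 0.003, so no member could pass alone after adjustment over 35. The lack of calls in these 6 libraries therefore does not show that correlation was absent. With the striatal score as a covariate, Scn3b and Cacna1h were called in females and Cacnb2 was not (edgeR adjusted p = 0.0624). In males 0 members were called with this covariate. In the averaged fit with it, 4 of 36 members were called (Cacna1h, Scn3b, Scn8a and Scn9a), beside 9.11% of all genes. The part of the striatal share of tissue in the members' differences was not tested beyond these fits.

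**Figure D4:**
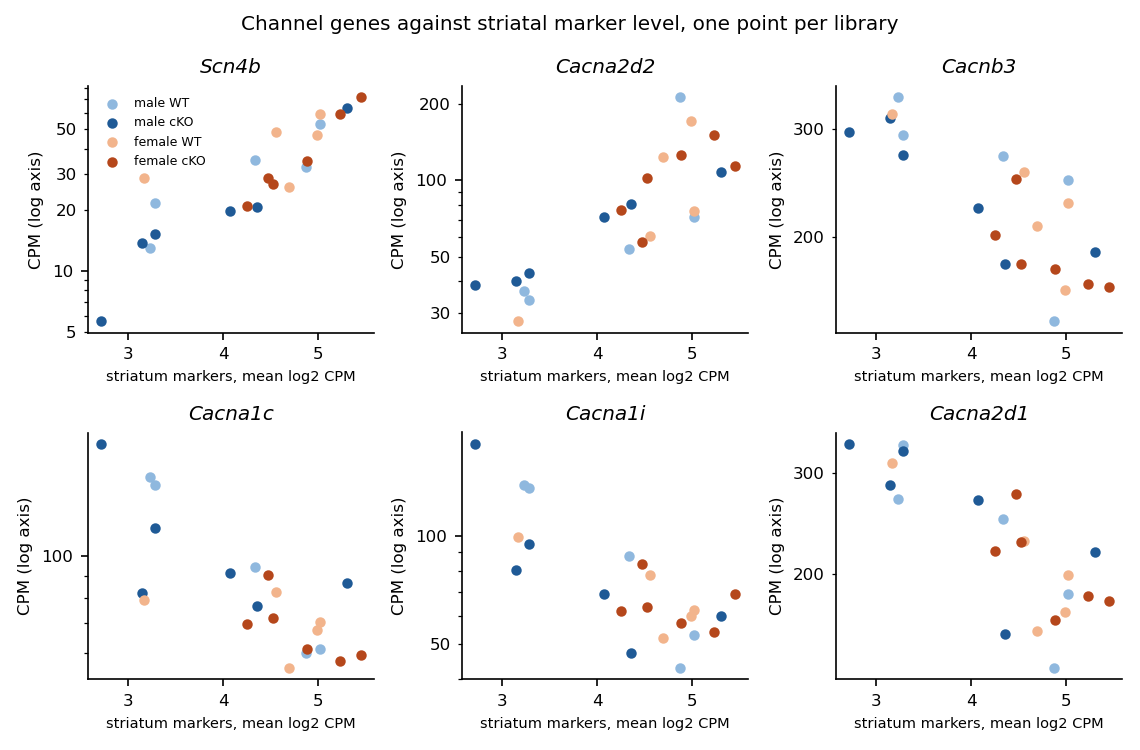
CPM of 6 channel genes (log axis) against the mean log2 CPM of 12 striatal markers, 1 point per library, coloured by sex and group. Scn4b and Cacna2d2 are mostly higher and Cacnb3, Cacna1c, Cacna1i and Cacna2d1 mostly lower in the 16 libraries with higher marker scores, and WT and cKO points intermix. The same 16 libraries were also the higher ones in oligodendrocyte markers.

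In males olfactory bulb markers also set libraries apart, largely the same ones. The 4 libraries above 100 CPM were all among the 6 with lower striatal scores. The remaining male library of those 6, cKO 14, came next at 84.2 CPM. In the 4 male libraries with olfactory bulb markers above 100 CPM, several members were high, less so in cKO 9. Cacna1d was 100.2, 111, 123 and 75.9 CPM in male WT 3, WT 6, cKO 8 and cKO 9, and 64.3 to 75.7 CPM in the other male libraries. Scn3a was 86.7, 73.4, 82.6 and 53.8 CPM in the same order, and 39.1 to 63.3 CPM in the others. Cacng5 reached 137 CPM in cKO 8 and 80.8 in WT 6, but stood at 43.4 in WT 3 and 38.7 in cKO 9, within the 18.3 to 65.4 CPM of the others. Without these 4 libraries 0 members passed in males, and 0 passed without WT 1 and cKO 8. With the olfactory bulb score as a covariate 0 members passed in males, and in females Scn3b was called and Cacnb2 was not (edgeR adjusted p = 0.0877). Both groups held such libraries, and the part of that tissue in the male values was not tested beyond these fits.

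**Figure D5:**
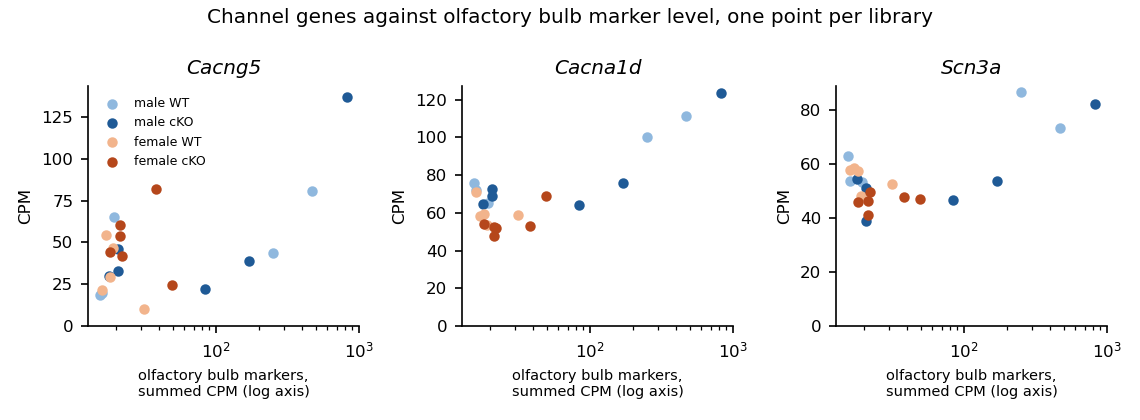
CPM of Cacng5, Cacna1d and Scn3a (axes from 0) against the summed CPM of 7 olfactory bulb markers (log axis), 1 point per library, coloured by sex and group. The points right of 100 CPM are male WT 3, WT 6, cKO 8 and cKO 9, among them the highest library for each of the 3 genes.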

How the data were processed

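Read counts per gene were measured in 22 mouse brain libraries. The count tables, 1 per sex, were deposited by the authors as raw counts. Per the submitters' processing notes, cutadapt, STAR, HTSeq and DESeq2 were used with build GRCm39, while the sources used here give no version, annotation or strand setting. The log2 fold changes and the p-values adjusted by the authors are quoted as their deposited table's. The 22 columns of normalized counts were not used. The column numbered 20 was taken as a female cKO library by its group name, since 1 title is unclear.

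Each sex was fitted with edgeR 4.0.16 (limma 3.58.1, R 4.3.3): filterByExpr (minimum count 10, minimum total 15), TMM scaling, quasi-likelihood F test, Benjamini-Hochberg adjustment over all genes tested, threshold 0.05, two-sided. The sex difference is the genotype by sex term of all 22 libraries. Each SE was derived from the log2 fold change and F. CPM uses TMM factors over the 22 libraries. Levels per kb use the union of exons in GENCODE annotation of GRCm38, a build other than that of the counts, so they are approximate. Totals of 12771354 to 16896239 counts limit the precision of low genes. Over 50 pairs of replicates within groups, chi-square divided by its degrees of freedom was at least 5.81, so no library duplicated another of its group. Pairs across groups were not compared. The labels do not state that libraries came from separate animals beyond their numbers, so p-values measure the spread between these samples. The fits were tested on simulated data.

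Some members and partner genes are not reported here, though every fit and count includes them unless stated. By rule, values are given for members past the threshold, for the member of each family with the highest level per kb and that with the smallest p in either sex, for partner genes called or with their list's smallest p, and for Smc3, and members failing the filter are named; other members were named after their values were seen. Members and lists were chosen with earlier results of these data known. DESeq2 1.42.0, RLE scaling, other filters, marker covariates and left-out libraries were the alternatives. The olfactory bulb list, the averaged fit and the pairs or sets of libraries left out were chosen after seeing the data.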

Additional observations from a re-analysis of the deposited data

Results flagged for a closer look

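Within groups of 5 or 6 libraries, 11 of 132 checks of the level of a member reported here found 1 library far from the rest, where chance gives about 5%. Male cKO 8 was the highest of its group for 5 genes: Cacna1d at 123 CPM (next 75.9), Cacna1i at 180 CPM (next 95), Cacng5 at 137 CPM (next 46.2), Cacna1c at 181 CPM (next 115) and Scn3a at 82.6 CPM (next 54.7). This library also had the highest olfactory bulb marker sum, 826 CPM, and the lowest striatal marker sum, 202 CPM. Male WT 1 was highest for Cacna2d2 at 213 CPM (next 71.9), and had the lowest summed level of excitatory neuron markers, 2794 CPM. Male cKO 13 was lowest for Scn3b at 82.3 CPM (next 125) and for Cacnb2 at 32.4 CPM (next 51.9). Without it the male log2 fold change was -0.26 for Scn3b and 0.37 for Cacnb2, and neither was called. Male cKO 10 was highest for Scn4b at 63.7 CPM (next 20.5), with the highest striatal marker sum among males, 859.8 CPM. In females, cKO 24 was highest for Cacna1d at 68.8 CPM (next 54.1), and WT 26 was lowest for Cacng7 at 114 CPM (next 138). The part of the tissue markers in these values was not tested.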

How the results depend on the processing

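In males 0 members were called under every alternative run, and for the sex difference likewise. In females the count of 2 became 4 with DESeq2, 1 without a filter on low counts, 0 in the fit of all 4 groups, 0 with the oligodendrocyte marker covariate, 1 with the olfactory bulb covariate and 1 without cKO 21 and WT 25, and 0 to 4 with 1 library left out. RLE scaling gave 2, and 3 were called at a mean of at least 1 CPM. For the average of both sexes the count of 3 became 5 with DESeq2, 6 with the oligodendrocyte and 6 with the olfactory bulb covariate. It was 4 with the striatal covariate, 2 without a filter on low counts and 2 to 4 with 1 library left out. The medians ran from -0.17 to -0.04 in males and from -0.13 to -0.05 in females with 1 library left out. For these changes the cause was not tested. Within each sex, signs turned for uncalled genes near 0. In males Cacng7 (0.03) became -0.10 with the striatal and -0.031 with the olfactory bulb covariate and -0.22 without WT 1 and cKO 8, which also gave Cacna1e 0.0074 and Cacna2d1 -0.052. Without the 4 libraries high in olfactory bulb markers, Cacnb3 was 0.034, Cacna1e 0.041 and Scn2a 0.054. In females Cacna2d1 was 0.14 with the oligodendrocyte covariate, 0.11 with the striatal one and 0.16 without cKO 21 and WT 25. Female Cacng7 was -0.0052 at a mean of at least 1 CPM, -0.0027 in the fit of all 4 groups, -0.0061 and -0.0088 with the striatal and olfactory bulb covariates and -0.0031 without cKO 21 and WT 25. With 1 library left out, the male ranges were Cacna1d -0.31 to 0.00224, Cacna1e -0.098 to 0.026, Cacnb3 -0.23 to 0.038, Cacng7 -0.17 to 0.17 and Scn2a -0.18 to 0.033, and the female ones Cacna2d1 -0.15 to 0.12 and Cacng7 -0.057 to 0.014. No paired analysis was possible because the groups share no replicate numbers. Depth limits Scn10a, Scn11a, Cacna1s, Cacna1f and Cacng6, with 55 counts or fewer in any library.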
